A study of Homo sapiens with 4 samples.

Results

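Wide peaks of H3K4bhb, the mark in which lysine 4 of histone H3 carries a beta-hydroxybutyryl group, were described in HK-2, an immortalised human cell line from the renal tubule. The members were chosen by a measured value, their width: the end minus the start of the deposited interval had to be 500 bp or more, on chromosomes 1 to 22. This gave 580 wide peaks of 17761 in all, or of 16639 on those chromosomes. The peak list of cells given sodium beta-hydroxybutyrate and hydrogen peroxide (H2O2 + BHBNa, called the BHBNa list) held 385 wide peaks of 10760, or 3.58% (95% Wilson interval 3.24 to 3.95). The list of cells given H2O2 alone (the H2O2 list) held 195 of 5879, or 3.32% (2.89 to 3.81). All intervals cover counting error only.

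H2O2, an oxidant, was thus common to both groups, and BHBNa was the difference between them. No group without H2O2 was analysed here, and the labels gave no dose or time. Each peak list came from 1 immunoprecipitated (IP) chromatin library set against 1 control library, which the labels called IgG in one field and input in another. With 1 IP library per treatment no test between treatments was possible, and each list was described apart. The lowest background at any peak, which rises with the depth of the libraries, was 0.102 fragments in the BHBNa list and 0.274 in the H2O2 list. A peak list of a histone mark does not measure expression, so the labelled cell type could not be checked by the level of its marker genes.

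Lysine beta-hydroxybutyrylation joins the ketone body beta-hydroxybutyrate to proteins, and on histones it is known to increase when ketone bodies are abundant. Lysine 4 of histone H3 is best known for its methylation, which in its trimethylated form marks active promoters and is broadest over genes of cell identity. A peak caller joins neighbouring enriched positions into 1 interval, so a wide peak is a stretch where IP fragments overlap or follow each other closely.

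Promoter windows are the 300 bases from 250 before to 50 after an annotated start, as given by RefSeq on GRCh38. A wide peak touched such a window at 3 genes, all of lncRNAs. Of the BHBNa list, 2 of 385 wide peaks touched one, 0.519%, against 35 of 10375 narrower ones, 0.337%, and in the H2O2 list 1 of 195, 0.513%, against 10 of 5684, 0.176%. The intervals of both differences hold 0. Of the protein-coding genes used, 79.6% had a window. The 3 genes were picked after their values were seen. The windows of the 3 genes are shown because they are where a wide peak meets an annotated start, with the bases under the peak in capitals and the rest in lower case, 5′ to 3′ on the gene's strand.
MALAT1, chr11:65498795-65499094, plus strand: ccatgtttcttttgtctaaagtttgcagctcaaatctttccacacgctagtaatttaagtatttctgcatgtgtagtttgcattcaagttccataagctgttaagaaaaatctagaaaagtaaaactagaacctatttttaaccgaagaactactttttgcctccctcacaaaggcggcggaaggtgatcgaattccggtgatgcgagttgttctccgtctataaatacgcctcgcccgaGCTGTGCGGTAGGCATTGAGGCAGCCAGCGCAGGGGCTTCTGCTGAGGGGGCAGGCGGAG
MED4-AS1, chr13:48076887-48077186, plus strand: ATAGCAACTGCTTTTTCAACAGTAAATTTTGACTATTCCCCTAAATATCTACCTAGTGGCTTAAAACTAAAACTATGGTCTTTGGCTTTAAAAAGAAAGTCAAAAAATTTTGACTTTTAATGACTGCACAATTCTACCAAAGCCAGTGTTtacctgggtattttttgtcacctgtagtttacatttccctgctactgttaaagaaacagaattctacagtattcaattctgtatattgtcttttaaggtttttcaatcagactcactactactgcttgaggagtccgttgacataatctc
LOC124904191, chr1:58745334-58745633, minus strand: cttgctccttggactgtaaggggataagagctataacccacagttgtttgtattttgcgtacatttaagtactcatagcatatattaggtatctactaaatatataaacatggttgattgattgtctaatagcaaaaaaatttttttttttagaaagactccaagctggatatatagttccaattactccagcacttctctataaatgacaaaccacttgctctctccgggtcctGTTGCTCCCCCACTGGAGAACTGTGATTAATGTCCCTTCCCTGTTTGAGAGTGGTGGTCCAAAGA

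MALAT1 is an abundant nuclear lncRNA of speckles. Its wide BHBNa peak (chromosome 11, 65499035 to 65499711) covered the last 60 bases of the window, with the summit 529 bp after that start. The annotated gene begins further upstream, so the peak lies inside it. It had a fold enrichment of 6.13 at the summit over background and a q (its p after adjustment for multiple testing) of 2.54e-05, both the authors' deposited values, as are all folds and q values given here. The summit rested on 6 IP fragments, a number recovered from those values. No H2O2 peak overlapped it, where 0.632% of all BHBNa peaks were overlapped by one. The window had 46% G and C and 14 CG pairs, where 33477 distinct windows of these chromosomes had medians of 58.7% and 14. The peak at MED4-AS1, which lies over the gene MED4 too, covered 150 bases, with a summit at -710 bp relative to this start and 2 fragments. That window had 33.3% G and C and 1 CG pair. At LOC124904191 the H2O2 peak had fold 4.71 and q 0.035 from 5 fragments, with its summit 506 bp after the start. Its window had 38% G and C and 2 CG pairs. The letters TATAAA, read on both strands, were in the windows of MALAT1 and LOC124904191 and in 11.6% of all windows.

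Widths and what chose the members come first, as a description. The wide peaks had a median width of 598 bp (interquartile range 545 to 666) in the BHBNa list and 586 bp (535 to 647) in the H2O2 list. Narrower peaks had medians of 319 and 293 bp in those lists. Wide peaks made up 6.59% of the length covered by peaks in the BHBNa list and 6.49% in the H2O2 list. A width of 800 bp or more was held by 33 peaks of the BHBNa list and 12 of the H2O2 list. The number of peaks stepped down at the limit. Of the BHBNa list, 54 peaks were within 20 bp above it and 222 within 20 bp below. Of the H2O2 list, 26 were above and 56 below. In the BHBNa list the step lay just past 2 times the width of the narrowest peak, 488 bp. The H2O2 value was 462 bp, and counts there fell more gradually. Peaks just inside had median folds of 3.41 and 3.81 in the BHBNa and H2O2 lists, and those just outside 3.37 and 3.84. In each list 3 peaks missed the limit by 1 bp.

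**Figure D1:**
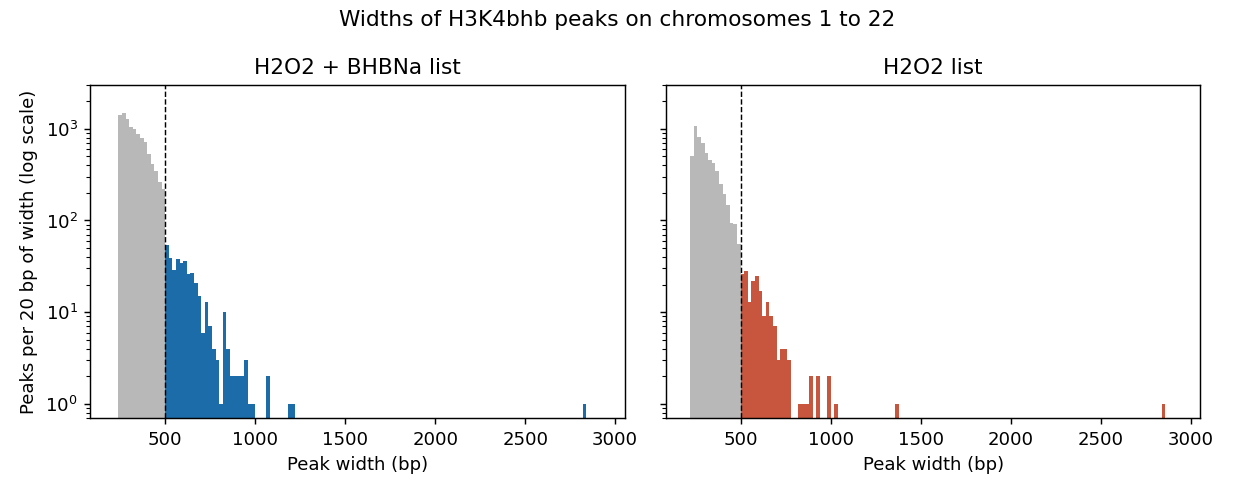
Number of peaks on chromosomes 1 to 22 per 20 bp of width (log scale) in the BHBNa list (left) and the H2O2 list (right). Coloured bars are peaks of 500 bp or more, grey bars narrower ones, and the dashed line is the limit, beside which the bins hold 54 (above) and 222 (below) BHBNa peaks, and 26 and 56 H2O2 peaks.

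The height of the wide peaks follows in part from their width and is also a description. Their median fold was 3.42 in the BHBNa list, against 2.72 for narrower peaks. For the H2O2 list it was 3.83 for wide and 3.49 for narrower peaks. A wide peak of the BHBNa list had a median of 3 IP fragments at its summit, and a narrower one 2. The H2O2 medians were 5 and 4. Most wide peaks were low. At most 5 fragments lay at the summit of 350 of 385 wide peaks (90.9%) in the BHBNa list and of 120 of 195 (61.5%) in the H2O2 list. At 108 wide peaks of the BHBNa list, 28.1%, the summit held 2 fragments, and the H2O2 list had no peak below 3. Of the BHBNa list, 125 wide peaks (32.5%) and 1498 narrower ones (14.4%) had a q of 0.05 or less, and 15.1% of all peaks. Of the H2O2 list, 43 wide (22.1%) and 373 narrower peaks (6.56%) did, and 7.08% of all. Nothing is read from these shares, since width and q come from the same fragments.

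The widest peak was at the same place in both lists, on chromosome 4 at 49709092 to 49711916 in the BHBNa list and 49709089 to 49711946 in the H2O2 list. It spanned 2824 bp with a fold of 9.69 in the BHBNa list and 2857 bp with a fold of 9.22 in the H2O2 list. Its control background was 29.4 and 56.4 fragments, 288 and 206 times the genome-wide levels of those lists, and the nearest protein-coding gene was 647 to 649 kb away. The part of that background in the peak's width was not tested. No other wide peak exceeded 1214 bp in the BHBNa list or 1365 bp in the H2O2 list. The peak of 1214 bp lay on chromosome 20 at 28494720 to 28495934, with a fold of 14.8. The peak of 1365 bp lay on chromosome 14 at 16094792 to 16096157, with fold 3.88 and q 0.03. Both were over 2 Mb from a protein-coding gene, at 2320 and 2510 kb.

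Among the 10 widest peaks of the BHBNa list, 3 lay in protein-coding genes, where 43.1% of all its peaks lay in or within 1 kb of one. PLXNB1, a plexin that serves as a semaphorin receptor, held a peak of 1073 bp with fold 3.63 and q 0.0484 from 3 fragments. SYNDIG1, a synaptic membrane protein, held one of 996 bp with fold 3.13 and q 0.326. EBF1, a transcription factor of B cell development, held one of 955 bp with fold 3.42 and q 0.121. None of the 10 widest peaks of the H2O2 list lay in or within 1 kb of a protein-coding gene, where 38.5% of all its peaks did. The cut at 10 matters here, as the next widest H2O2 peak, of 856 bp, lay in TIPARP. That list's next after the chromosome 14 peak was on chromosome 2, at 107706016 to 107707049, with fold 5.28 and q 0.00933. The highest fold among its 10 widest, after the chromosome 4 peak, was 7.66 on chromosome 16 at 52248555 to 52249551, 187 kb from a gene, from 15 fragments.

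**Figure D2:**
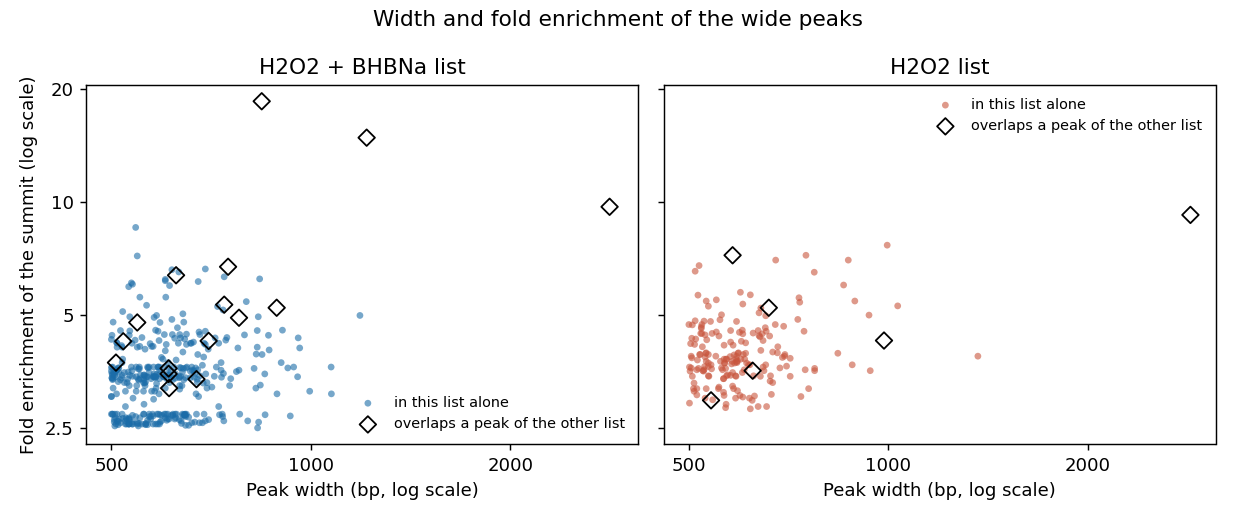
Width (bp, log scale) and fold enrichment of the summit (log scale) of the 385 wide peaks of the BHBNa list (left) and the 195 of the H2O2 list (right). Diamonds are wide peaks that overlap a peak of the other list, among them the 3 highest folds of the left panel, 18.5, 14.8 and 9.69.

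Wide peaks were found in the other treatment's list more often than narrower peaks of the same list. Of the 385 wide BHBNa peaks, 16 overlapped an H2O2 peak by 1 bp or more, 4.16% (2.57 to 6.64). Of its narrower peaks 52 of 10375 did, 0.501% (0.382 to 0.657), and of all its peaks 0.632%. The difference was 3.65 percentage points (95% Newcombe interval 2.07 to 6.15). Of the 195 wide H2O2 peaks, 6 overlapped a BHBNa peak, 3.08% (1.42 to 6.55). There 63 of 5684 narrower peaks did, 1.11% (0.867 to 1.42), and 1.17% of all peaks. The difference was 1.97 points (0.281 to 5.45). Of the 6, those on chromosome 4 at 49709089 and 166580050 lay over backgrounds of 56.4 and 14 fragments. The median background of wide H2O2 peaks was 0.518 fragments. The part of those peaks in the difference was not tested. A wide interval has more room to be met. With the summit required to lie inside a peak of the other list, the shares were 2.08% of wide and 0.357% of narrower peaks in the BHBNa list, where all peaks gave 0.418%. The difference was 1.72 points (0.691 to 3.69). For the H2O2 list they were 2.56% and 0.721%, where all peaks gave 0.782%, a difference of 1.84 points (0.357 to 5.15).

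The share of peaks found in the other list stood higher in each wider class, as a description. Shared BHBNa peaks numbered 3 of 194 below 600 bp, 9 of 158 of 600 bp up to 800 bp and 4 of 33 of 800 bp or more. The H2O2 counts were 2 of 114, 2 of 69 and 2 of 12. Because higher peaks were shared more often too, wide and narrower peaks were set side by side within bands of fragments at the summit. The bands match heights only in part, and the top one has no upper limit. In it, 5 of 35 wide and 11 of 184 narrower BHBNa peaks had 12 or more fragments. In the lowest band, 108 of 261 wide and 5466 of 8804 narrower BHBNa peaks had 2. The shared BHBNa peaks were 4 of 261 wide and 31 of 8804 narrower ones with 2 to 3 fragments, a difference of 1.18 points (0.234 to 3.52). With 4 to 5 fragments they were 4 of 89 and 10 of 1387, a difference of 3.77 points (0.975 to 10.3). With 6 or more they were 8 of 35 and 11 of 184, a difference of 16.9 points (5.22 to 33.2). The summit-based shares at 2 to 3 and at 4 to 5 fragments differed by 0.167 points (-0.171 to 1.92) and 0.547 points (-0.533 to 5.52), and these intervals hold 0. For the H2O2 list the difference was 1.95 points (0.0655 to 7.07) at 4 to 5 fragments and 2.07 (-0.717 to 9.21) at 6 or more. With 2 to 3 fragments 0 of 13 wide peaks of that list were shared, which allows up to 23.1%. Outside the longest gene-free stretch of each chromosome, described below, the wide and narrower peaks of the BHBNa list were shared in 3.02% and 0.488% of cases. That difference was 2.53 points (1.2 to 4.84). Wide and narrower peaks of the H2O2 list were shared in 2.63% and 0.998%, a difference of 1.63 points (0.103 to 5.02). The widest peak, on chromosome 4, lay outside these stretches and so stayed among the shared wide peaks of both lists.

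**Figure D3:**
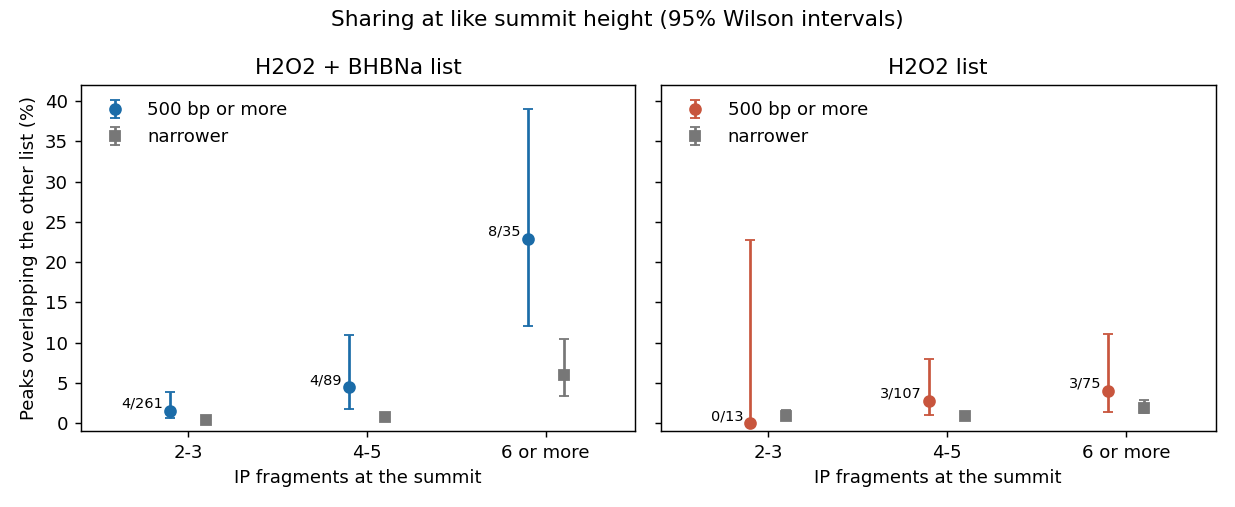
Share of peaks that overlap a peak of the other list (%), by the number of IP fragments at the summit, for wide peaks (coloured circles, with counts) and narrower peaks (grey squares) of the BHBNa list (left) and the H2O2 list (right). Bars are 95% Wilson intervals. Wide peaks with 6 or more fragments in the BHBNa list were shared in 8 of 35 cases.

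Of the 16 shared wide peaks of the BHBNa list 4 lay in or within 1 kb of a protein-coding gene, where 43.1% of all its peaks did. Of the 6 of the H2O2 list 1 did, where 38.5% of all its peaks did. The chromosome 4 peak was the only place where both partners were wide. The highest fold of all wide peaks was 18.5, from 23 fragments, on chromosome 1 at 143253833 to 143254676 in the BHBNa list. The H2O2 peak there was narrower, 468 bp, with a fold of 5.74. The wide chromosome 20 peak of the BHBNa list covered 2 separate H2O2 peaks, of 239 and 338 bp, with folds of 4.13 and 4.99. Close by, a wide BHBNa peak of 888 bp at 28497532 to 28498420 had a fold of 5.22 and met an H2O2 peak with a fold of 5.44. On chromosome 4 at 166580050, the wide peak of the H2O2 list met a BHBNa peak of 467 bp. The folds there were 5.98 in the BHBNa list and 7.2 in the H2O2 list, from 43 and 107 fragments, over backgrounds of 6.35 and 14 fragments. Summits of the overlapping pairs lay 21 to 2144 bp apart for wide BHBNa peaks, with a median of 176 bp. For wide H2O2 peaks they lay 14 to 2144 bp apart, with a median of 116 bp. The largest gap belonged to the widest peak.

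SLC13A3, a sodium-dependent dicarboxylate transporter of the proximal tubule, was the 1 gene with a shared wide peak of the H2O2 list. Its fold was 7.01 in the BHBNa list, where the peak was 486 bp and stayed just under the limit, and 5.22 in the H2O2 list, where it was 660 bp (chromosome 20, 46655982 to 46656642). The summits held 9 and 15 fragments and lay 124 bp apart. DIP2C held a wide BHBNa peak of 750 bp (chromosome 10, 655756 to 656506) with fold 6.71 and q 1.90e-05. The H2O2 peak inside it, 451 bp, had fold 2.95 and q 0.494. MACROD2, a hydrolase that removes ADP-ribose from proteins, had folds of 4.77 in the BHBNa list and 3.65 in the H2O2 list, with q values of 0.0116 and 0.289. CDYL, a chromodomain corepressor that also acts on histone crotonylation, had folds of 3.73 and 3.65 in those lists, and SGCD, a sarcoglycan of muscle membranes, 3.6 and 3.14. Neither CDYL peak reached a q of 0.05, with values of 0.117 and 0.289. In all, 12 of the 16 shared wide BHBNa peaks had a q of at most 0.05, and 7 had a partner that did so too. Such a q was held by 32.5% of wide and 15.1% of all BHBNa peaks, and by 22.1% and 7.08% in the H2O2 list. Of the 6 shared wide H2O2 peaks 3 had a q of at most 0.05, each with a partner that did so too.

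Wide peaks of the BHBNa list lay in or within 1 kb of a protein-coding gene in 141 of 385 cases, 36.6% (32 to 41.5). Its narrower peaks did so in 4493 of 10375, 43.3% (42.4 to 44.3), and all its peaks in 43.1%. The difference was -6.68 points (-11.4 to -1.67). Without the longest gene-free stretches it was -5.11 points (-10.1 to 0.0759), an interval that holds 0. Within the bands of summit fragments it was -5.98 points (-11.7 to 0.126) at 2 to 3 fragments, -2.95 (-12.9 to 7.75) at 4 to 5 and -12.1 (-24.3 to 5.04) at 6 or more. These intervals hold 0 too. With a limit of 600 bp it was -5.47 points (-12.1 to 1.65). The H2O2 list had shares of 39.5% (32.9 to 46.5) for wide and 38.4% (37.2 to 39.7) for narrower peaks, against 38.5% for all, a difference of 1.06 points (-5.65 to 8.18). Long noncoding RNA (lncRNA) genes held the summits of 13% of wide and 16.6% of narrower peaks in the BHBNa list. For the H2O2 list they held 22.1% and 18.2%. The intervals of both lncRNA differences hold 0.

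**Figure D4:**
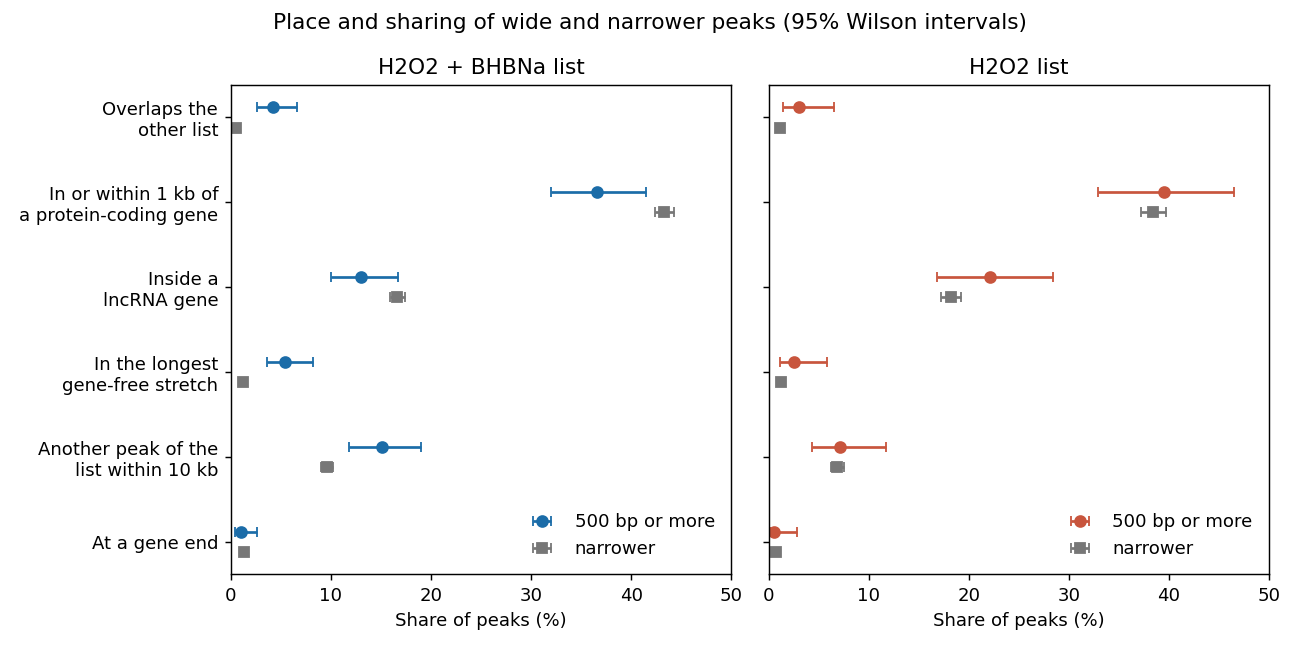
Share of wide peaks (coloured circles) and narrower peaks (grey squares) of the BHBNa list (left) and the H2O2 list (right) that overlap the other list or lie at each kind of place (%), with 95% Wilson intervals. In the BHBNa list 15.1% of wide and 9.59% of narrower peaks had another peak within 10 kb.

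The longest stretch of each chromosome without a protein-coding gene was used as a further measure of place. On chromosomes 1 and 20, among others, it spans the centromere, where satellite repeats lie. These stretches held 21 of 385 wide peaks of the BHBNa list, 5.45% (3.59 to 8.19), against 128 of 10375 narrower ones, 1.23% (1.04 to 1.46). The difference was 4.22 points (2.35 to 6.97). Chromosome 1 gave 6 of the 21 and chromosome 20 gave 3. Some lay close together, on chromosome 1 from 143245060 to 143265002 and on chromosome 17 from 26882219 to 26884519. The 3 summits of chromosome 20 lay between 28495459 and 28497966. The intervals count each peak as a separate draw. Without the chromosome 1 stretch the difference was 2.8 points (1.24 to 5.28), 15 of 379 wide peaks against 120 of 10367 narrower ones. Within the bands of summit fragments, which match heights only in part, it was 1.58 points (0.183 to 4.34) at 2 to 3 fragments. It was 4.39 (1.12 to 11.3) at 4 to 5 and 18.1 (5.61 to 34.7) at 6 or more. Of the wide H2O2 peaks, 5 of 195 lay in such stretches, 2.56% (1.1 to 5.86), against 70 of 5684 narrower ones, 1.23%. That difference of 1.33 points had an interval of -0.166 to 4.64.

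Close neighbours were counted next. Peaks near each other count each other, and the intervals treat each peak as a separate draw. Another peak of the same list had its summit within 10 kb of 58 of 385 wide peaks, 15.1% (11.8 to 19), against 995 of 10375 narrower ones, 9.59% (9.04 to 10.2). The difference was 5.47 points (2.2 to 9.43). For wide peaks below 600 bp it was 2.27 points (-1.6 to 7.6). For all wide peaks within those bands of summit fragments it was 4.2 points (0.48 to 8.94) at 2 to 3 fragments. It was 2.08 (-3.2 to 10.4) at 4 to 5 and 21.8 (7.23 to 38.8) at 6 or more. The H2O2 list had 14 of 195, 7.18%, against 388 of 5684, 6.83%, a difference of 0.353 points (-2.58 to 4.91).

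Few wide peaks lay at a gene end, taken as within 1 kb of either annotated end. There were 4 in the BHBNa list, 1.04% (0.405 to 2.64), against 1.3% of narrower peaks, and 1 in the H2O2 list, 0.513% (0.0906 to 2.85), against 0.757%. The intervals of both differences, -0.262 points (-0.939 to 1.35) and -0.244 points (-0.74 to 2.1), hold 0. Those of the BHBNa list included OSR2, TMEM230 and MED4. OSR2, a zinc finger factor of embryonic development, had fold 3.57 and q 0.0505, with the summit 186 bp inside the gene's higher-numbered end. TMEM230 had fold 3.51 and q 0.0784. MED4, a Mediator subunit, had a fold of 2.68 near the finish of its transcription, 703 bp inside the gene, from 2 fragments. The 1 gene of the H2O2 list was MRGBP, a subunit of the NuA4 histone acetyltransferase complex. Its peak lay 921 bp past the finish of transcription, with fold 3.14 and q 0.494 from 3 fragments.

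Protein-coding genes with a wide peak in or within 1 kb numbered 141 in the BHBNa list, 0.743% of 18973, and 76 in the H2O2 list, 0.401%. Any peak was found at 15.6% and 8.05% of genes. Genes with a wide peak were long, with medians of 212 kb (interquartile range 85.2 to 415) in the BHBNa list and 281 kb (124 to 514) in the H2O2 list. Genes with narrower peaks alone had medians of 121 and 174 kb, and all genes 24.8 kb. A length of 500 kb or more was held by 18.4% of genes with a wide BHBNa peak, 9.06% of those with narrower peaks alone and 1.6% of all. For the H2O2 list the first 2 shares were 27.6% and 15.1%. A peak of any width in the H2O2 list was found at 59 of the 141 genes with a wide BHBNa peak, 41.8%, and at 771 of 2826 with narrower ones alone, 27.3%. Of the 76 genes with a wide H2O2 peak, 47 had a BHBNa peak, 61.8%, against 783 of 1452, 53.9%. Lengths differed between these genes too, and their part in these shares was not tested.

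The 10 highest folds in genes ranged from 4.77 to 6.71 in the BHBNa list and from 5.06 to 6.76 in the H2O2 list. In the BHBNa list DIP2C, described above, was highest. ADAMTS19, a secreted metalloproteinase, held a peak of 617 bp (chromosome 5, 129549973 to 129550590) with fold 6.59 and q 1.28e-05 from 7 fragments. LTBP1, which binds latent TGF-beta in the matrix, had fold 5.98 and q 8.04e-05. ADAM12, a membrane metalloproteinase, had fold 5.26 and q 5.45e-04. SVEP1, a large matrix adhesion protein, had a fold of 5.15, and PCDH7, a protocadherin, 4.92. ODR4, whose Caenorhabditis elegans counterpart brings receptors to the cell surface, had a fold of 6.31. L3MBTL3, a reader of methylated lysine, had fold 4.94 and q 0.00646. CES4A, of the carboxylesterase family, had a fold of 4.98 at 1060 bp from its start of transcription. MACROD2, also above, was the remaining one.

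Highest in the H2O2 list was SNTG1, a syntrophin, at 6.76, with a q of 2.58e-05 from 9 fragments (chromosome 8, 50366729 to 50367247). CTNND2, delta-catenin, had 6.53 and a q of 6.82e-05. PCDH15, the protocadherin of hair cell tip links, had 6.49 and a q of 7.24e-06 from 13 fragments over 773 bp. CDH7, a cadherin, had 5.55 over 733 bp. TIPARP, a mono-ADP-ribosyltransferase induced by the aryl hydrocarbon receptor, held a peak of 856 bp with fold 6 and q 3.09e-04, 3472 bp from its start of transcription. PLD1, a phospholipase D, had a fold of 5.65, and FGGY, a carbohydrate kinase, 5.64. SH3GL2, an endophilin of synaptic vesicle uptake, had 5.44. THSD7A, a membrane protein known as an autoantigen of membranous nephropathy, had 5.06 with a q of 0.0099. SLC13A3 was the remaining gene. Except for SLC13A3, none of these H2O2 peaks overlapped a peak of the BHBNa list. Such overlap was rare in general, at 1.17% of all H2O2 peaks and 3.08% of wide ones.

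Wide peaks occurred in both lists in 4 genes, 2.84% of the 141 and 5.26% of the 76, and at different places in each. Of all protein-coding genes, 0.401% had a wide H2O2 peak and 0.743% a wide BHBNa peak. The part of gene length in this was not tested. DCC, the netrin receptor of axon guidance, held 2 wide peaks in the BHBNa list, with folds of 4.52 and 2.57, and 1 in the H2O2 list, with a fold of 4.8. The nearest summits of the lists were 176 kb apart. DNAH11, a dynein of motile cilia, had folds of 3.24 and 3.57 in the BHBNa and H2O2 lists, at summits 35 kb apart. DCDC1, a doublecortin domain protein, had 3.54 and 3.96 at 60.8 kb, and PRKG1, the cGMP-dependent protein kinase, 3.44 and 3.81 at 446 kb. These genes are 359 to 1310 kb long.

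Gene lists of the cell type and treatment held 0 or 1 gene with a wide peak each, where all protein-coding genes gave 0.743% and 0.401%. Peaks of any width lay at 15.6% and 8.05% of all genes in the BHBNa and H2O2 lists. Of 48 proximal tubule genes, 0 had one in the BHBNa list, which allows up to 6.25%, and 1 in the H2O2 list, SLC13A3. Peaks of any width lay at 11 and 5 of the 48. Of 76 genes of oxidative phosphorylation, 0 had a wide peak in either list, which allows up to 3.95%, where peaks of any width lay at 8 and 3. NDUFAF6, an assembly factor of complex I outside that list, was singled out after its values were seen. It held a BHBNa peak of 844 bp (chromosome 8, 95019397 to 95020241) with fold 3.92 and q 0.0633. Of 60 enzymes of ketone body, fatty acid and TCA cycle metabolism, 1 had a wide peak in the BHBNa list and 0 in the H2O2 list. It was ACADM, the medium-chain acyl-CoA dehydrogenase, with a peak of 662 bp, fold 3.56 and q 0.186 from 4 fragments. Wide peaks lay at 0 of 31 genes of mitochondrial biogenesis and dynamics and at 0 of 41 listed genes of histone acylation and H3K4 methylation in both lists. CDYL and MRGBP, with the wide peaks given above, are outside that list. Peaks of any width lay at 7 and 2 of the 31, and at 12 and 6 of the 41, in the BHBNa and H2O2 lists.

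Genes of other tissues were counted in the same way. Of 44 neuronal adhesion and synapse genes, 7 had a wide peak in the BHBNa list, 15.9%, and 4 in the H2O2 list, 9.09%. Among all protein-coding genes 0.743% and 0.401% had a wide peak in those lists. Their median length is 858 kb, and peaks of any width lay at 38 and 36 of them, against 15.6% and 8.05% of all genes. The part of gene length in these counts was not tested. In the BHBNa list they included NEGR1, CNTNAP4, CNTN5, DLG2, GRM8 and DCC. NEGR1, a neuronal growth regulator, had fold 4.28 and q 0.0161. CNTNAP4, CNTN5, DLG2 and GRM8 had folds of 2.53 to 3.42 and none of these had a q of at most 0.05. Those of the H2O2 list included CNTN1, DLGAP1 and DCC. CNTN1, a contactin, had fold 4.42 and q 0.0436 from 9 fragments. DLGAP1, a scaffold of the postsynaptic density, held 2 wide peaks with folds of 4.31 and 3.18. Of 24 endothelial and blood cell markers, EMCN, endomucin of endothelium, had a wide peak in the BHBNa list, with fold 3.42 and q 0.121. The H2O2 list had 0 of the 24.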

How the data were processed

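H3K4bhb ChIP-seq peak lists of 2 treatments were used, each from 1 IP and 1 control library. The submitters' processing notes name MACS2 2.2.7.1, HOMER, DiffBind, Bowtie2 2.4.2, ChIPseeker and fastp 0.20.1, and the build GRCh38; their settings are not given in the sources used here. Values per peak were deposited as a score, a fold (ratio of summit to background), a −log10 p-value, a −log10 q-value and a summit. The deposited score is the −log10 p rescaled and cut to a whole number. The 2 files of a treatment held the same peaks, with starts 1 bp apart, so coordinates are as in the narrowPeak file, read as counted from 1. Read totals were not given, so depth is known only through the recovered background.

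Fragments at the summit and background were recovered from fold and p, taking fold as (pileup + 1) over (background + 1) and p as the upper Poisson tail above the pileup, which matched 100% of peaks in both lists within 0.001 on the −log10 scale or in proportion. The gene set was 18973 protein-coding genes of RefSeq (GRCh38.p14). Another 153 rows that carry a chromosome name with scaffold coordinates were left out. They were recognised by the restart of the start positions. Strand came from the promoter table. The gene-free stretch runs between neighbouring protein-coding genes, or from base 1. A summit decided place, and 1 bp decided overlap. Shares carry 95% Wilson and differences 95% Newcombe intervals, and a count of 0 allows up to 3 counts.

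Named genes were the 10 widest peaks, the 10 highest folds in genes, shared wide peaks, gene ends, genes with wide peaks in both lists and members of the 7 gene lists. Some genes that this rule names are not reported here. Members and lists were chosen with earlier results of these data known. Python 3.11.15, numpy 2.4.6, pandas 2.3.3, scipy 1.17.1 and matplotlib 3.10.9 were used, overlaps were checked with bedtools 2.31.1, and the scripts were tested on simulated data.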

Additional observations from a re-analysis of the deposited data

Results flagged for a closer look

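Wide peaks also lay on sequences that the comparisons do not use. On chromosomes X and Y there were 20 of 705 peaks in the H2O2 + BHBNa list, 2.84% (95% Wilson interval 1.84 to 4.34), and 19 of 354 in the H2O2 list, 5.37% (3.46 to 8.23). On unplaced contigs there were 8 of 45, 17.8% (9.29 to 31.3), and 7 of 18, 38.9% (20.3 to 61.4). The wide contig peaks had a median of 114 fragments at the summit in the H2O2 + BHBNa list and 553 in the H2O2 list, and widths of up to 2616 and 2619 bp.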

How the results depend on the processing

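No paired analysis was possible because each treatment held 1 IP library, and no replicate could be left out. The limit on pileup was chosen after seeing the data. Counts of wide peaks are given for H2O2 + BHBNa and then H2O2. They were 2160 and 777 at 400 bp, 191 and 81 at 600 bp, 5 and 3 at 1000 bp, 125 and 43 at a q of at most 0.05, and 5 and 7 at a −log10 q of at least 5. The widest 5% of the H2O2 list was 298 peaks. The sharing difference (wide minus narrower, percentage points) in the H2O2 + BHBNa list was 1.22 with 0.5 of the peak covered, 1.24 with 0.5 of both covered and 1.72 by summit. It was 1.07, 6.29 and 39.4 at 400, 600 and 1000 bp, 8.26 at a q of at most 0.05 and 52 at a −log10 q of at least 5. The 39.4 rested on 2 of 5 wide peaks and the 52 on 3 of 5. In the H2O2 list the sharing difference was 32.2 at 1000 bp, from 1 of 3 wide peaks. It turned to -4.76 (-42.1 to 36.7) at a −log10 q of at least 5, with 7 wide peaks. At a q of at most 0.05 it was 2.69 (-2.56 to 14.4), an interval that holds 0. The gene difference in the H2O2 + BHBNa list was -23.1 (-39.5 to 19.4) at 1000 bp, from 5 wide peaks. At a −log10 q of at least 5 it was -44 (-57.7 to 1.31), also from 5. In the H2O2 list it was -6.45 (-15.7 to 4.4) at 600 bp and -38.5 (-39.7 to 17.7) at 1000 bp, the latter from 3. At a −log10 q of at least 5 it was -30.2 (-61.3 to 14.8), from 7. All these intervals hold 0. The gene-end difference in the H2O2 list was -1.79 (-2.92 to 1.13) within 3 kb. With all gene-free stretches of 1 Mb or more, the difference was 8.47 (4.07 to 13.3) in the H2O2 + BHBNa list. In the H2O2 list it was -2.32 (-8.33 to 4.5). Smaller counts follow from stricter limits, and other causes were not tested. The other 39 of 68 alternative values stayed within the interval of the reported one, or within 1.5 times the count.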

Other observations

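Chromosome 13 held 10 of the 385 wide peaks of the H2O2 + BHBNa list, 2.6%, and 3.84% of its narrower peaks. In the H2O2 list it held 2 of 195 wide peaks, 1.03%, against 278 of 5684 narrower ones, 4.89%, a difference of -3.87 points (-4.82 to -1.18). It was chosen after the values were seen, as the 1 interval that left out 0 among 22 chromosomes in each of 2 lists.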
